A study of Mus musculus with 108 samples.

Results

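The clustered protocadherins are a family of cadherin-like cell surface proteins encoded by 3 gene clusters that follow each other in the mouse genome, the alpha (Pcdha), beta (Pcdhb) and gamma (Pcdhg) clusters. Their rows were taken from the deposited gene table by symbol, which gave 58 genes of 53465. There were 14 alpha genes (12 alternate genes and the C-type genes Pcdhac1 and Pcdhac2), 22 beta genes, and 22 gamma genes (12 of type a, 7 of type b and the C-type genes Pcdhgc3, Pcdhgc4 and Pcdhgc5). The symbol Pcdha11 belonged to 2 gene identifiers, ENSMUSG00000007440 and ENSMUSG00000102206, which were kept apart.

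Protocadherins of these clusters bind the same isoforms on neighboring cells, and the combination that a neuron makes is known to give it an identity used in dendritic self-avoidance, axon targeting and survival. Each alpha and gamma gene has its own promoter and first exon, which is spliced to constant exons shared by the whole cluster, whereas a beta gene has no constant part. Alternate genes are known to be chosen stochastically in single neurons by promoter choice that involves CTCF, cohesin and distal enhancers, and the C-type genes, at the ends of the alpha and gamma clusters, are used more uniformly within cell types.

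RNA was sequenced from 3 brain regions, the cerebral cortex (CX), the hippocampus (HIP) and the cerebellum (CB), of untreated WT and Cul3+/- mice (HET in the labels) at E17.5, P7 and in adults (P35, given in the study's methods as 4 to 6 weeks of age). The mutants carried a germline 1-bp insertion in exon 6 of Cul3, which encodes the scaffold of a ubiquitin ligase, so that every cell type of a mutant was heterozygous, and the controls were WT mice of the same strain, spelled C56Bl/6N in the labels and C57BL/6N in the methods. The 36 mice gave 108 libraries. Mice P35_22 and P35_23, whose genotypes differed between the labels and a supplementary table of the study, were left out, which left 34 mice with 3 libraries each. These were 6 WT and 6 mutant mice at each of the earlier periods and 5 of each genotype among adults. The sex of the mice was not in the labels. Each library was made from bulk tissue of a dissected region, so fewer cells of a type and less RNA per cell cannot be told apart.

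The libraries held 15126114 to 44411282 counts, with a median of 32663960. Cul3 was lower in the mutants in all 9 combinations of period and region, by 0.74 to 0.99 on the log2 scale (edgeR adjusted p = 8.8e-09 to 0.00263), with no overlap between genotypes in any of them. Gabra6, a receptor subunit of mature cerebellar granule neurons, had 761 CPM (the TMM-normalized count of a gene scaled to library size) in adult CB. The granule precursor marker Atoh1 was at 0.00 CPM in adult CB and the hippocampal marker Spink8 at 0.07 CPM in embryonic HIP.

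The split of reads between isoform genes was uncertain in the alpha and gamma clusters. In the GENCODE vM21 annotation of GRCm38, between 38.0% and 54.9% of the exonic bases of an alpha gene (median 53.4%) and between 27.8% and 66.8% of those of a gamma gene (median 44.7%) were shared with other members. In the beta cluster Pcdhb21 and Pcdhb22 were the only genes with any shared base. The counting software divides a read from a shared exon between the genes by estimation, and 99.3% of the alpha values and 99.0% of the gamma values were not whole numbers, against 21.5% of the beta values and 5.76% of all values. The sum over a cluster does not depend on how reads were divided within it, so levels are given first as cluster sums. Reads of the gamma constant exons could also go to 4 other annotated genes on the same strand, of which Gm38182 had a mean of 32.5 expected counts per library and the others below 1. Genes on the opposite strand overlapped exons of 4 alpha, 1 beta and 8 gamma members, and whether the counting used strand is not given in the sources used here.

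The 3 clusters followed different courses in WT mice. The alpha cluster had a peak at P7 in the forebrain regions and its lowest sum at the same age in CB, the beta cluster had a shallow course of the same shape, and the gamma cluster had the largest summed CPM in every group and, in CB, its highest sum in adults. Summed CPM also count gene length, so the clusters are compared by their courses and single genes per kb.

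In WT CX the alpha sum was 90.4 to 197 CPM (median 170.0) in the 6 embryos, 353 to 505 CPM (median 375) at P7, and 190.0, 205, 197, 181 and 180.1 CPM in the 5 adults. The ranges of adjacent periods did not overlap, and the P7 mean of 392 ± 56.9 CPM (SD, n = 6) was 2.49 times the embryonic one (2.18 times without the 4 embryos whose names start with S3, 2 of them WT, which stood apart as described further on), and the adult mean was 0.486 times that of P7. In WT HIP it was 84.2 to 205 CPM (median 148) in embryos, 273 to 293 CPM (median 289) at P7, and 141, 130.1, 156, 123 and 143 CPM in adults. In WT CB it was 154 to 191 CPM (median 166) in embryos, 104 to 123 CPM (median 111) at P7, and 133, 146, 198, 155 and 130 CPM in adults. There the P7 libraries were all below those of the other periods, and the P7 sum in CX was 3.49 times that in CB. In CB of Cul3+/- mice the means were 183, 116 and 131 CPM at the 3 periods, and the ranges of P7 and adults overlapped.

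The beta sum of WT mice stayed between a mean of 164 ± 7.74 CPM (SD, n = 6) in P7 CB and 249 ± 10.8 CPM (SD, n = 6) in P7 CX. Its means were 202, 249 and 212 CPM in CX, 165, 221 and 195 CPM in HIP, and 208, 164 and 233 CPM in CB, at E17.5, P7 and in adults. The beta genes thus also had their lowest cerebellar sum at P7, with 154 to 173 CPM against 193 to 217 CPM in embryos and 221 to 249 CPM in adults.

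The gamma sum of WT mice was 598 ± 62.9, 663 ± 65.2 and 515 ± 34.4 CPM in CX (SD, n = 6, 6 and 5) and 568 ± 159, 662 ± 12.5 and 501 ± 54.0 CPM in HIP at the 3 periods. In CB it was 450.0 ± 26.2 CPM in embryos, 531 ± 25.8 CPM at P7 and 675 ± 158 CPM in adults. The adult cerebellar libraries held 585, 600.1, 947, 676 and 567 CPM, of which replicate 3 was far above the others, and all 5 were above the P7 range of 501 to 563 CPM.

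**Figure D1:**
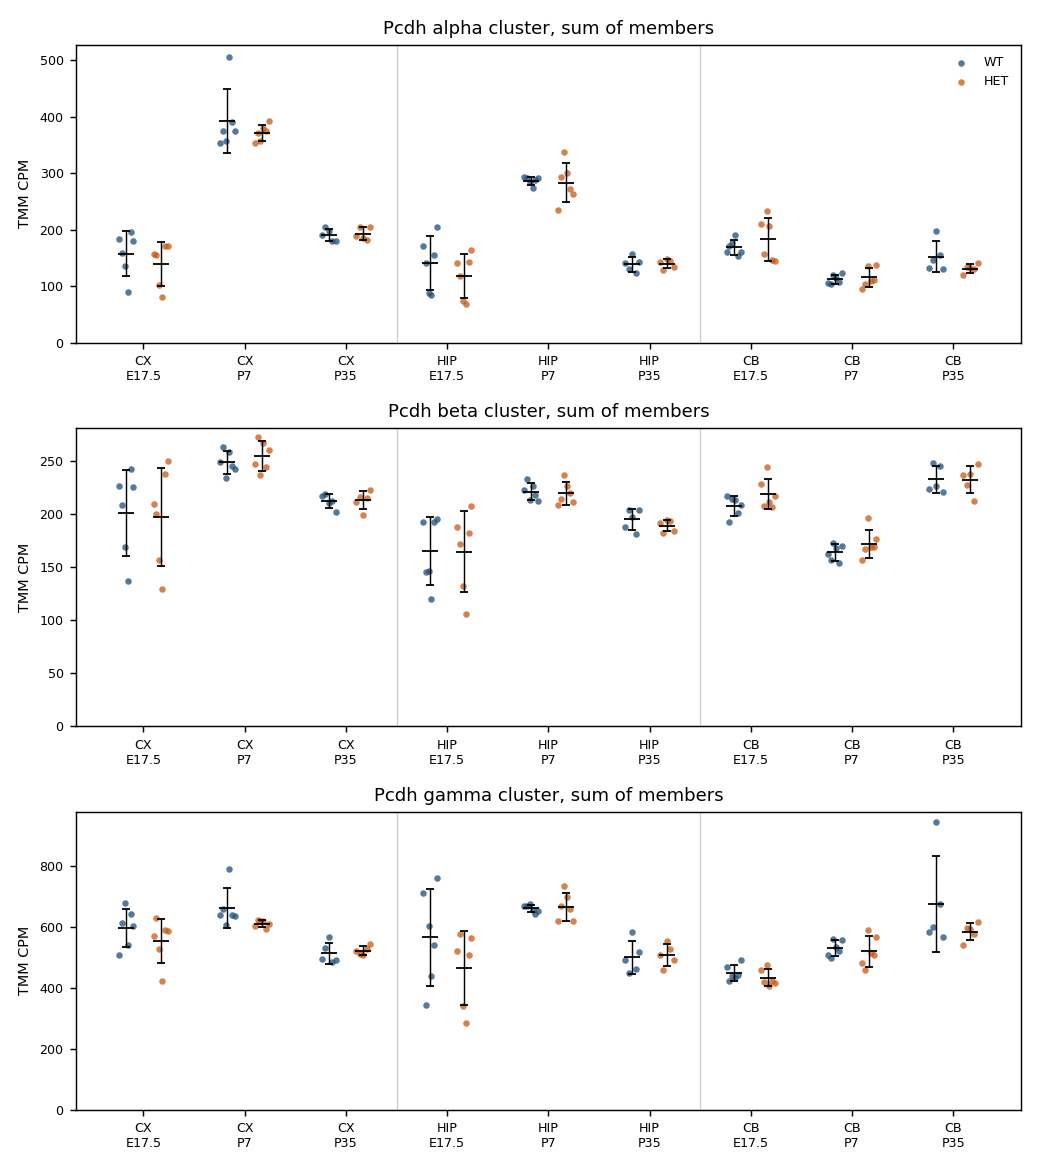
Sum of the TMM CPM of the members of each cluster (vertical axes) in every library, by region and period, for WT and Cul3+/- (HET) mice, with bars for the mean ± SD. The alpha sums of P7 CX (353 to 505 CPM in WT) stand above all other groups, those of P7 CB (104 to 123 CPM in WT) are the lowest of the 3 periods in CB of WT mice, and the ranges of WT and HET points overlap in all 9 combinations in each cluster.

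Most of the alpha sum of P7 CX came from alternate genes, whose WT sum was 124, 270 and 98.7 CPM in CX at E17.5, P7 and in adults, and 126, 55.6 and 60.1 CPM in CB. The alternate sums of P7 and adult CB overlapped in WT mice, and in Cul3+/- mice, at means of 60.0 and 52.8 CPM, they overlapped as well. All 12 alternate alpha genes had their highest mean of the 9 WT groups in P7 CX, as had Pcdhac2, and Pcdhac1 had it in adult CB. Of the 22 beta genes, 7 were highest in P7 CX, 4 in adult CB and the other 11 in 5 other groups. Of the 12 gamma a genes, 8 were highest in P7 CX and 3 in adult CB. None of the 7 gamma b genes was highest in P7 CX, and 4 of them were highest in an embryonic forebrain region and 3 in adult CB.

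Compared per kb of exon, 3 C-type genes led, with WT means over the 9 groups of 28.1 CPM per kb for Pcdhgc3, 13.2 for Pcdhgc4 and 11.1 for Pcdhac2, whereas Pcdhgc5 had 5.30 and Pcdhac1 1.13. The most abundant alternate genes on this scale were Pcdhga11 (8.28), Pcdhgb6 (5.88) and Pcdhga3 (5.28) in the gamma cluster, Pcdhb17 (4.70), Pcdhb9 (3.63) and Pcdhb16 (3.51) in the beta cluster, and Pcdha12 (2.98), Pcdha4 (2.77) and Pcdha9 (2.61) in the alpha cluster. The median gene had 1.91 CPM per kb in the alpha, 1.78 in the beta and 3.20 in the gamma cluster. Pcdhb1, the lowest with 0.0508 CPM per kb, was the one member too low to be tested in most comparisons.

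No alternate gene dominated its cluster. The effective number of genes, the exponential of the Shannon entropy of their shares, was between 10.3 and 11.1 of 12 alternate alpha genes, between 15.7 and 17.2 of 19 alternate gamma genes and between 15.7 and 17.8 of 22 beta genes over the WT group means. The level of 1 gene could still vary across groups. Pcdha4, for example, ranged 6.11-fold, from 5.99 CPM in P7 CB to 36.6 CPM in P7 CX, and Pcdha12 ranged 4.64-fold between the same groups, whereas Pcdhb17 ranged 1.41-fold, from 18.2 CPM in adult HIP to 25.6 CPM in embryonic CB. Pcdhga11 lay between them, with 2.73-fold from 23.3 CPM in P7 CB to 63.6 CPM in P7 CX.

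The 5 C-type genes each had a course of their own. Pcdhgc5 rose in the forebrain at each step. In WT CX it was 3.84 to 6.76 CPM (median 6.08) in embryos, 18.8 to 36.6 CPM (median 27.6) at P7, and 144, 167, 163, 162 and 150.1 CPM in adults. In WT HIP it was 2.16 to 7.90 CPM (median 3.57), 22.4 to 34.1 CPM (median 28.2), and 115, 99.9, 138, 103 and 119 CPM. In WT CB it was 4.60 to 6.98 CPM (median 4.87), 6.49 to 9.09 CPM (median 7.31), and 12.03, 10.5, 21.6, 15.7 and 11.2 CPM. The forebrain ranges of the 3 periods did not overlap, every adult WT forebrain library was above every WT cerebellar one, and the highest group mean was 36.5 times the lowest, the widest range among the 58 genes.

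Pcdhgc3, the most abundant member per kb and known to act in astrocytes as well as in neurons, moved the other way in CX and CB. In WT CX it was 133 to 201 CPM (median 159) in embryos, 107 to 155 CPM (median 119) at P7, and 69.6, 74.2, 80.7, 68.4 and 73.1 CPM in adults. In WT CB it was 102.2 to 132 CPM (median 107), 206 to 241 CPM (median 219.5), and 229, 235, 386, 279 and 219 CPM. Every WT cerebellar library at P7 and in adults was above every WT cortical library of the same age.

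Pcdhgc4, a C-type isoform that neurons are known to need for survival, had its highest level at P7 in each region, with WT means of 62.1 ± 19.5, 132 ± 7.98 and 65.7 ± 10.9 CPM in CX, 36.7 ± 20.0, 114 ± 6.22 and 55.1 ± 10.9 CPM in HIP, and 66.4 ± 16.2, 85.2 ± 4.13 and 49.6 ± 12.9 CPM in CB (SD, n = 6, 6 and 5). Pcdhac2, known for its part in the tiling of serotonergic axons, was at 29.4 ± 7.64, 114 ± 16.99 and 83.8 ± 6.04 CPM in CX and at 39.5 ± 1.70, 52.2 ± 3.85 and 82.6 ± 17.4 CPM in CB. It thus kept rising in CB after P7, where CX had passed its peak. Pcdhac1, the lowest C-type gene per kb, had WT means between 2.62 CPM in embryonic CB and 9.58 CPM in adult CB.

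**Figure D2:**
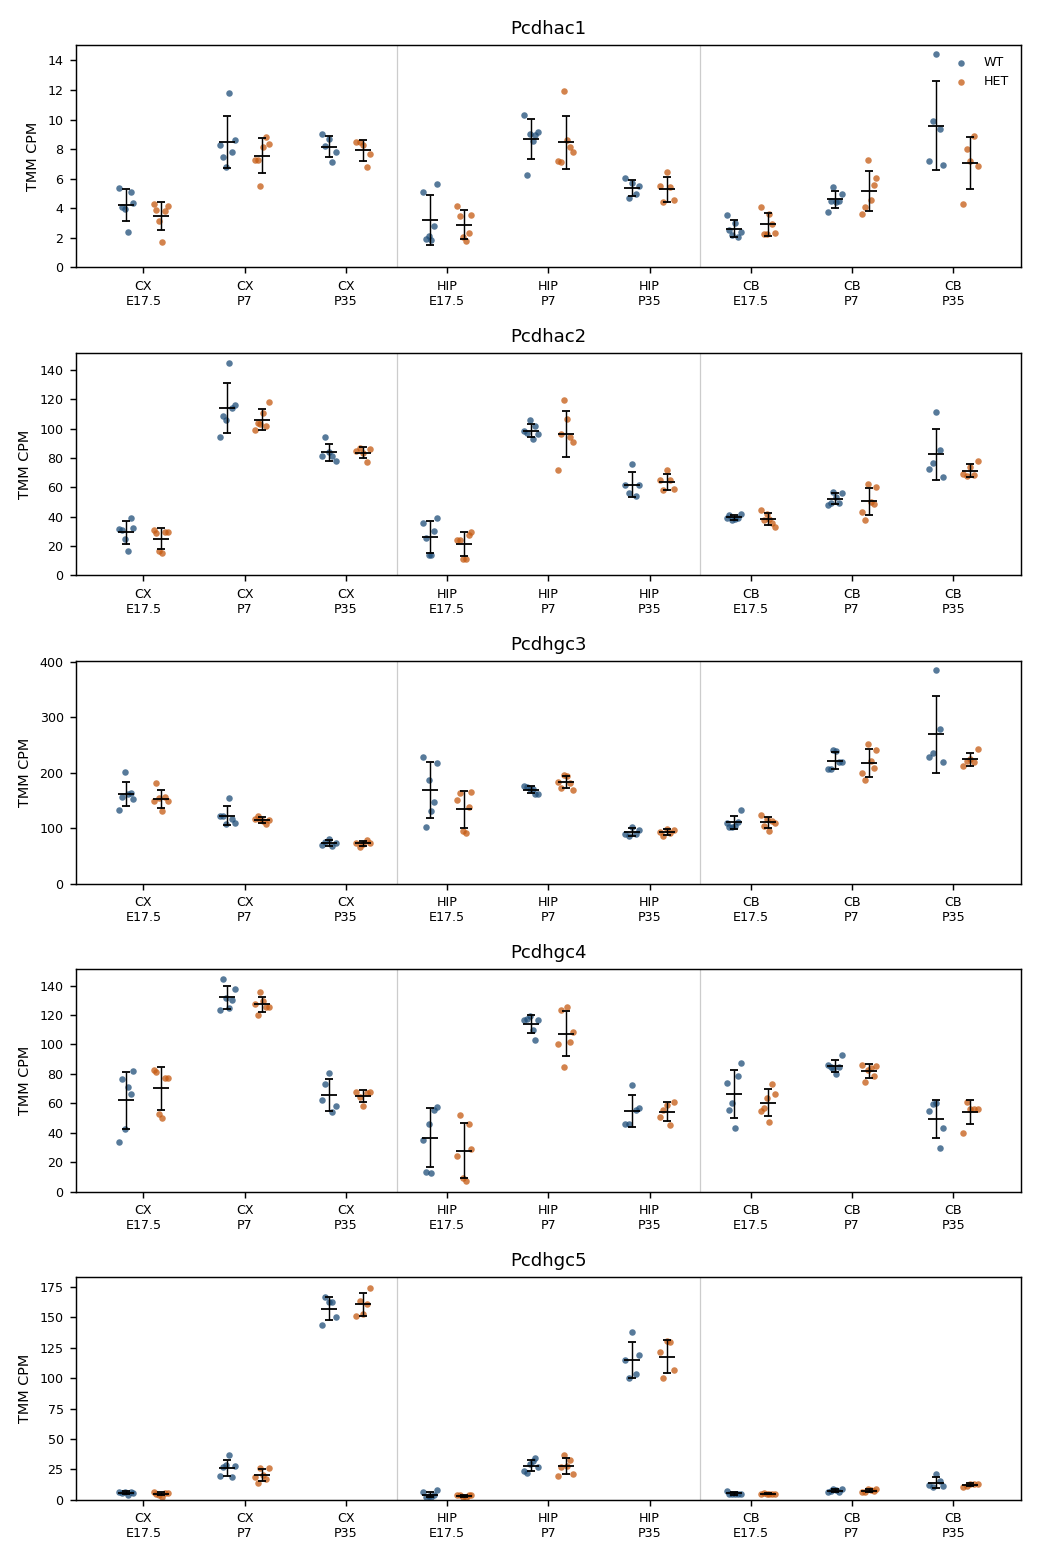
TMM CPM (vertical axes, each with its own scale from 0) of the 5 C-type genes in every library by region and period, for WT and Cul3+/- (HET) mice, with bars for the mean ± SD. Pcdhgc5 reaches 144 to 167 CPM in adult WT CX and 10.5 to 21.6 CPM in adult WT CB, and Pcdhgc3 shows the opposite order, with 68.4 to 80.7 and 219 to 386 CPM.

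The share of a cluster sum that came from C-type genes increased with age in most cases. In the alpha cluster it was 21.3 ± 0.859%, 31.2 ± 1.37% and 48.2 ± 1.20% (SD, n = 6, 6 and 5) in WT CX at E17.5, P7 and in adults, 20.5%, 37.4% and 48.3% in HIP, and 25.1%, 50.5% and 60.2% in CB. In the gamma cluster it was 38.3%, 42.4% and 57.5% in CX and 36.5%, 47.0% and 52.4% in HIP, and in CB it was 40.3% in embryos, 59.3% at P7 and 49.4% in adults. The alpha share rose at each step in each region, and the gamma share of CB was the one that dropped, between P7 and the adult. In Cul3+/- mice the alpha shares were 20.5%, 30.6% and 47.4% in CX and 23.1%, 47.9% and 59.8% in CB.

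**Figure D3:**
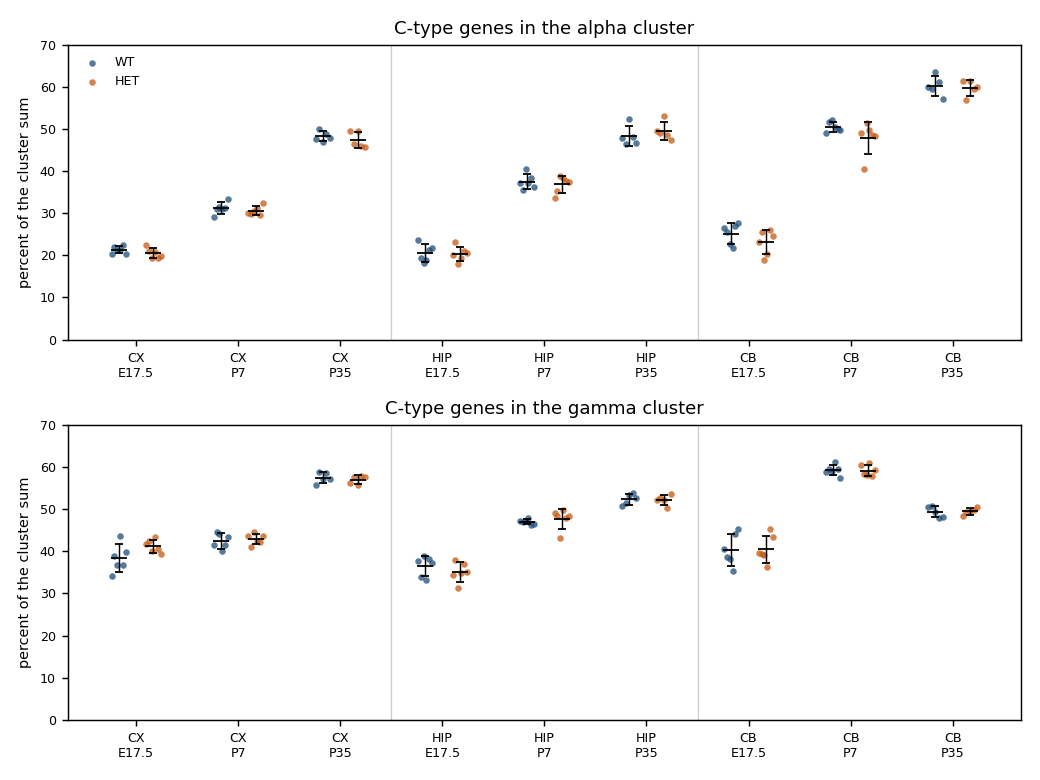
Percent of the summed CPM of the alpha (top) and gamma (bottom) cluster that came from C-type genes, per library, by region and period for WT and Cul3+/- (HET) mice, with bars for the mean ± SD. The alpha share rises from 21.3% to 48.2% in WT CX and from 25.1% to 60.2% in WT CB, and the gamma share of CB has its highest value, 59.3%, at P7.

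Libraries of a few mice stood apart. The 4 embryos whose names start with S3, 2 of each genotype and replicates 3 and 4 of both groups, had alpha sums of 80.7 to 136 CPM in CX against 156 to 197 CPM in the 8 other embryos, and 68.7 to 87.5 against 119 to 205 CPM in HIP. Their beta sums were also lower in CX, 130 to 169 against 199.98 to 250.4 CPM. In CB the alpha sums of these embryos were 176 to 233 CPM against 144 to 211 CPM in the others, and gamma sums overlapped in each region. The 6 progenitor markers (Sox2, Pax6, Hes5, Nes, Mki67 and Top2a) summed to 938 to 1148 CPM in their CX against 476 to 690.0 CPM in the others, and the 6 neuron markers to 3649 to 4114 against 4615 to 5163 CPM. In CB the order was the other way round for both lists, with 823 to 955 against 972 to 1139 CPM for progenitors and 3440 to 4147 against 3002 to 3647 CPM for neurons, the latter with overlap. Other marker lists did not follow one direction in CX. The forebrain projection neuron markers summed to 1729 to 2118 CPM in the S3 embryos against 1394 to 1700.3 CPM in the others, the oligodendrocyte precursor markers to 21.2 to 29.0 against 62.4 to 116 CPM, and the astrocyte markers to 223 to 239.6 against 279 to 338 CPM. What S3 stands for is not in the labels, and the part of these markers in the cluster sums was not tested. The counts of WT members called in comparisons with embryos are therefore given with and without these embryos, and other values include them unless stated. Without them the WT embryos had alpha sums of 180 ± 15.3 CPM in CX, 168 ± 27.99 CPM in HIP and 161 ± 7.04 CPM in CB (SD, n = 4), the ratio of the P7 mean to the embryonic one was 2.18, 1.71 and 0.697 in place of 2.49, 2.04 and 0.666, and the ranges of the 2 periods still did not overlap in any region. The ratio of the beta sums was 1.10, 1.22 and 0.801, with overlap in CX. The C-type share of the embryonic alpha sum was 21.3%, 21.6% and 26.7% in CX, HIP and CB without them, and that of the gamma sum 37.4%, 36.8% and 42.1%.

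Among postnatal libraries, WT replicate 4 of P7 CX had the highest level of 13 of 14 alpha and 18 of 22 gamma genes in its group, with an alpha sum of 505 CPM. Its 6 astrocyte markers summed to 2879 CPM against 1545 to 1992 CPM in the others. WT replicate 3 of adult CB was highest for 21 of 22 gamma genes, with 4215 CPM of astrocyte markers against 3348 to 3779 CPM and 1710 CPM of granule neuron markers against 2058 to 2154 CPM. The part of these markers in the levels was not tested.

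Changes with age were tested in WT mice in each region, between E17.5 and P7 and between P7 and adults. Both steps share the P7 libraries. A gene was called at a Benjamini-Hochberg adjusted p under 0.1 in edgeR's quasi-likelihood test over all genes tested, which called most genes of the transcriptome, so that each count of members is given beside the share of all genes.

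In CX between E17.5 and P7, 33 of 57 members tested were higher at P7, where 39.5% of all genes were, and 10 were lower, where 42% of all genes were. Of the alpha genes 13 of 14 rose and none fell, with a median log2 fold change of 1.04, of the beta genes 13 of 21 rose and none fell, with a median of 0.41, and of the gamma genes 7 rose and 10 fell. The median over all genes was between -0.03 and 0 in each comparison with age. At least 2-fold higher were 12 of the 57 members and 21.2% of all genes. Without the S3 embryos 31 members rose (39.6% of all genes in that fit) and 13 fell (40.2%), 4 of them beta genes, and the alpha and beta medians were 0.84 and 0.24.

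Pcdha1 had the largest rise, from 1.16 to 6.80 CPM, a log2 fold change of 2.54 (SE 0.34, edgeR quasi-likelihood adjusted p = 1.08e-05), and Pcdhgc5 rose by 2.14 (SE 0.18, adjusted p = 1.07e-07). Pcdhac2 rose by 1.89, Pcdhgc4 by 1.02 and Pcdhac1 by 0.94, and Pcdhgc3 fell by 0.46. In fits without the S3 embryos these changes were 2.38, 2.07, 1.70, 0.97, 0.77 and -0.37, and each was called by edgeR. The gamma genes split by type. All 7 gamma b genes fell, with a median of -0.54, whereas 5 of 12 gamma a genes rose and 2 fell. Pcdhgb8, which the annotation lists as a polymorphic pseudogene, fell most, from 3.50 to 1.63 CPM (log2 fold change -1.10, SE 0.19).

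In HIP over the same step 28 of 57 members rose (37.5% of all genes) and 6 fell (39.3%), and without the S3 embryos 22 rose (35.1%) and 9 fell (38.9%). Of the alpha genes 12 of 14 rose and none fell, with a median of 0.70, and of the beta genes 13 of 21 rose and none fell. Without the S3 embryos 9 alpha genes rose, with a median of 0.40, and 10 beta genes rose and 2 fell. All 6 genes that fell were of gamma b type, Pcdhgb8 again the most with -1.06 (SE 0.21). Pcdhgc5 had the largest rise, 6.44-fold (log2 fold change 2.69, SE 0.30), followed by Pcdhac2 with 1.88, Pcdhgc4 with 1.61 and Pcdhac1 with 1.42 among the C-type genes, which were 2.42, 1.56, 1.45 and 1.15 without the S3 embryos. The change of Pcdhgc3 was -0.02 (SE 0.17) in WT mice by edgeR, at an adjusted p of 0.936, and 0.44 in Cul3+/- mice, at an adjusted p of 0.0121.

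CB went the other way over this step. There 41 of 57 members fell (38.4% of all genes) and 7 rose (37.1%), and without the S3 embryos 37 fell (36%) and 6 rose (34.8%). All 12 alternate alpha genes fell, with a median of -1.33, as did 16 of 21 beta genes, with a median of -0.40 over the cluster, and 13 of 19 alternate gamma genes. Pcdha5 fell most, from 13.8 to 3.81 CPM (log2 fold change -1.85, SE 0.13, edgeR adjusted p = 2.14e-08). All 5 C-type genes rose, Pcdhgc3 the most, from 122 to 241 CPM (log2 fold change 0.98, SE 0.06, adjusted p = 4.77e-09), then Pcdhac1 with 0.79, Pcdhgc5 with 0.53, Pcdhac2 with 0.38 and Pcdhgc4 with 0.34. The call of Pcdhgc4 was lost without the S3 embryos, at 0.19 and an adjusted p of 0.104 by edgeR.

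Between P7 and the adult in CX, 42 of 57 members fell (37% of all genes) and 3 rose (35.4%). The alternate alpha genes fell together, all 12 of them by at least 2-fold and with a median of -1.43, in a comparison where 11.3% of all genes fell by as much. Pcdha2 fell most, from 17.2 to 5.28 CPM (log2 fold change -1.71, SE 0.15, edgeR adjusted p = 1.61e-07). Among the gamma genes 18 of 22 fell and Pcdhgc5 alone rose, 6.09-fold (log2 fold change 2.61, SE 0.14, adjusted p = 7.76e-10). Of the beta genes 11 fell and 2 rose, with a median of -0.18. Of the other C-type genes, Pcdhgc4 fell by 0.98, Pcdhgc3 by 0.71 and Pcdhac2 by 0.41 on the log2 scale, and Pcdhac1 was at -0.02 (SE 0.12, adjusted p = 0.918).

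HIP had the same counts in this step, 42 of 57 members lower (37.5% of all genes) and 3 higher (36.8%). All 14 alpha genes fell, 11 of them by at least 2-fold (10.2% of all genes), with Pcdha11 (ENSMUSG00000102206) the furthest down, from 11.1 to 3.49 CPM (log2 fold change -1.66, SE 0.15). Of the gamma genes 18 of 22 fell and Pcdhgc5 alone rose, 4.14-fold (log2 fold change 2.05, SE 0.11, edgeR adjusted p = 4.11e-10), and of the beta genes 10 fell and 2 rose. The other 4 C-type genes fell, by 1.03 for Pcdhgc4, 0.85 for Pcdhgc3, 0.68 for Pcdhac1 and 0.66 for Pcdhac2 on the log2 scale.

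In CB 41 of 57 members rose between P7 and the adult (39.7% of all genes) and 3 fell (40.2%). The rise was in the beta cluster, with 15 of 21 genes and a median of 0.41, and in the gamma cluster, with 19 of 22 and a median of 0.61, in which all 7 gamma b genes rose. Of the alternate alpha genes 5 of 12 rose and 1 fell. Pcdhgb8 rose most, from 1.94 to 5.25 CPM (log2 fold change 1.44, SE 0.17, edgeR adjusted p = 3.39e-06), and the largest fall was that of Pcdhgc4, -0.80 (SE 0.15). Pcdhac1 rose by 1.04, Pcdhgc5 by 0.88 and Pcdhac2 by 0.64. Pcdhgc3 rose by 0.26 (SE 0.13, adjusted p = 0.0746), a call that was lost when any of 6 mice was left out, with 0.11 without WT replicate 3 of the adult libraries, and its change in Cul3+/- mice was 0.04.

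**Figure D4:**
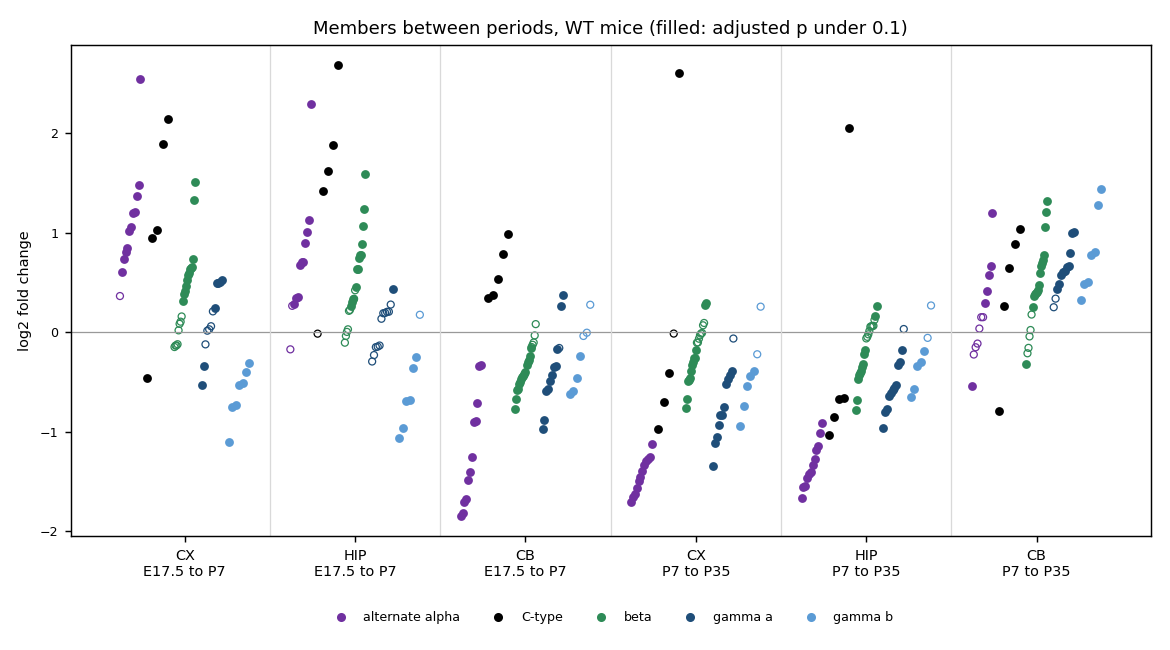
Log2 fold change (vertical axis) of each tested member between consecutive periods in WT mice, by region, with 1 point per gene colored by type and filled where called at an adjusted p under 0.1. Alternate alpha genes lie above 0 in CX between E17.5 and P7 and below 0 in CB, all 12 fall in CX and HIP after P7, and the single high point there is Pcdhgc5 (2.61 in CX, 2.05 in HIP).

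The members called in WT mice were compared with the same fit in Cul3+/- mice. Between E17.5 and P7 the mutants gave 40 of 43 cortical, 30 of 34 hippocampal and 44 of 48 cerebellar calls with the same sign, and between P7 and adults 41 of 45, 39 of 45 and 36 of 44. None was called with the opposite sign. The share of all genes called alike in both genotypes is not given here, and most genes were called in WT mice, so these counts show nothing particular to the members.

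Cell type markers moved over the same steps. In WT CX the 6 neuron markers summed to 3930 to 5163 CPM in embryos, 6686 to 7437 CPM at P7 and 6237 to 7427 CPM in adults, the 6 astrocyte markers to 223 to 338, 1545 to 2879 and 3527 to 4558 CPM, and the 6 oligodendrocyte markers to 25.1 to 35.01, 103 to 139 and 3605 to 4718 CPM. In WT HIP neuron markers summed to 2741 to 3838, 4872 to 5582 and 5041 to 5818 CPM. In WT CB they summed to 3284 to 3720, 2333 to 2547 and 4331 to 4577 CPM, the 6 granule neuron markers to 794 to 1154, 1604 to 1795 and 1710 to 2154 CPM, and progenitor markers to 916 to 1132, 1050.1 to 1255 and 129 to 144 CPM. The neuron sum of CB was thus lowest at P7, the age at which the alpha and beta sums of that region were lowest, and the alpha sum of CX fell after P7 while the neuron sums of the 2 ages overlapped. The part of these markers in the changes with age was not tested beyond this.

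Whether the change with age differed between CX and CB was tested as an interaction of period and region with mouse as a block, a comparison added after the data were seen. Between E17.5 and P7 the change of 49 of 57 members differed (70.7% of all genes), 42 of them more positive in CX (36.5%) and 7 more negative (34.1%). The 13 alpha and 18 beta genes called were all more positive in CX, and the gamma genes were divided, 11 more positive and 7 more negative. The change in CX minus that in CB was 1.59 for Pcdhac2, 1.63 for Pcdhgc5 and -1.41 for Pcdhgc3 on the log2 scale (edgeR adjusted p = 1.09e-06, 9.48e-07 and 3.14e-07). Without the S3 embryos 46 members were called, 41 and 5 in these directions, in a fit whose share of all genes is not given here.

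Between P7 and adults the change of 53 of 57 members differed between CX and CB (65.3% of all genes), 52 of them more negative in CX (29.7%) and 1, Pcdhgc5, more positive (35.6%), by 1.82. These were all 14 alpha genes, 18 of 21 beta genes and 21 of 22 gamma genes, with medians of -1.43, -0.63 and -1.19, and the gene not called in the gamma cluster was Pcdhgc4 (-0.13, edgeR adjusted p = 0.295). In Cul3+/- mice 46 of the 49 and 51 of the 53 were called with the same sign, without a share of all genes to set beside them. Most genes were called by this interaction in WT mice, so these counts show nothing particular to the members.

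Regions were compared within each period in WT mice with mouse as a block. In embryos few members differed between CX and HIP, 7 higher in CX (19% of all genes) and 1 lower (25.4%) of 57, with Pcdhb20 the most raised (log2 difference 0.76, SE 0.25) and Pcdhga8 the 1 lower gene (-0.34, SE 0.12). With 1 mouse left out at a time, the call of Pcdhb20 was lost in 2 of 6 fits, over values of 0.55 to 0.97, and that of Pcdhga8 in 4 of 6, over -0.44 to -0.26. Without the S3 embryos 6 members were higher (12.7% of all genes) and none lower (21.1%), and the adjusted p by edgeR was 0.124 for Pcdhb20 and 0.195 for Pcdhga8. In Cul3+/- mice this comparison called 27 members, 25 of them higher in CX, in a fit that called more genes in all, 30.7% of them higher in CX and 31.8% lower. The C-type genes all missed the threshold here, the largest difference being 0.83 (SE 0.40, edgeR adjusted p = 0.146) for Pcdhgc4, which was 1.56 (adjusted p = 0.00166) in the mutants.

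The forebrain and CB differed by cluster in embryos. Between CX and CB 19 members were higher in CX (30.8% of all genes) and 8 lower (32.3%), and between HIP and CB 12 were higher in HIP (20.4%) and 17 lower (24.3%). The gamma genes were higher in the forebrain, 15 of 22 in CX and 12 in HIP, and all beta genes called were lower, 5 of 21 in CX and 13 in HIP. Pcdhgb8 was the most raised, by 1.16 in CX and 0.99 in HIP, and Pcdha1 the most reduced, with -1.40 and -1.57. Without the S3 embryos the counts were 26 higher (33% of all genes) and 7 lower (34.4%) for CX. They were 15 higher (19.4%) and 7 lower (21%) for HIP, so that the majority of lower members in HIP was not kept. The beta genes were then 5 higher and 3 lower in CX and 3 lower in HIP, the median of the alpha genes went from -0.28 to 0.12 in CX and from -0.48 to 0.04 in HIP, and Pcdha1 was at -1.16 and -0.86.

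At P7 CX was above HIP for 30 of 57 members (31.7% of all genes) and below for 2 (28.2%). Of the alternate alpha genes 11 of 12 were higher, with a median of 0.60, and Pcdha8 had the largest difference, 1.02 (SE 0.16). Pcdhgc3 was lower, at -0.45 (SE 0.06, edgeR adjusted p = 0.000252).

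Both forebrain regions were above CB at P7. In CX 46 of 57 members were higher (39.2% of all genes) and 2 lower (41.7%), and in HIP 48 were higher (39.2%) and 2 lower (40%). All 14 alpha genes were higher in both, with medians of 2.16 in CX and 1.56 in HIP, and 18 of 21 beta genes in both, with medians of 0.63 and 0.45. At least 2-fold higher in CX were 24 members, all 12 alternate alpha genes among them, in a comparison where 18.4% of all genes were. Pcdha5 differed most, with 3.60 CPM in CB and 30.6 CPM in CX, a difference of 8.49-fold (log2 3.09, SE 0.11, adjusted p = 7.5e-09 by edgeR), and 2.49 in HIP. The types of gamma genes differed here too, with 11 of 12 gamma a genes higher in CX than in CB, at a median of 0.88, and 1 of 7 gamma b genes higher and 1 lower, at a median of 0.15. Pcdhgc3 was the other lower gene, at -0.88 (227 CPM in CB and 124 CPM in CX, SE 0.07).

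In adults CX and HIP still differed in the alpha cluster, where 12 of 14 genes were higher in CX and none lower. In all 23 members were higher in CX (28.6% of all genes) and 12 lower (29.2%), with Pcdha11 (ENSMUSG00000102206) at 0.96 (SE 0.13) and Pcdhgb2 at -0.39 (SE 0.07) the extremes. The latter was -0.07 in Cul3+/- mice. Pcdhgc5 was higher in CX by 0.47 and Pcdhgc3 was at -0.33.

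Against adult CB the clusters separated. In CX 18 members were higher (36.3% of all genes) and 25 lower (37.5%), which were 9 higher and no lower of 14 alpha genes, 7 and 10 of 21 beta genes, and 2 and 15 of 22 gamma genes. The gamma b genes were lower by the most, 6 of 7 with a median of -1.11. Pcdhgc5 was higher in CX by 11.6-fold (12.96 CPM in CB and 146 CPM in CX, log2 difference 3.54, SE 0.15, edgeR adjusted p = 1.7e-07), and Pcdhgc3 was lower (246 and 67.8 CPM, log2 difference -1.83, SE 0.10, adjusted p = 1.05e-06). Adult HIP against CB had 8 members higher (36.2% of all genes) and 27 lower (36.6%), with Pcdhgc5 at 3.06 and Pcdhgc3 at -1.50. Pcdhgc5 and Pcdhgc3 were thus the extremes of the family in both comparisons, in opposite directions.

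**Figure D5:**
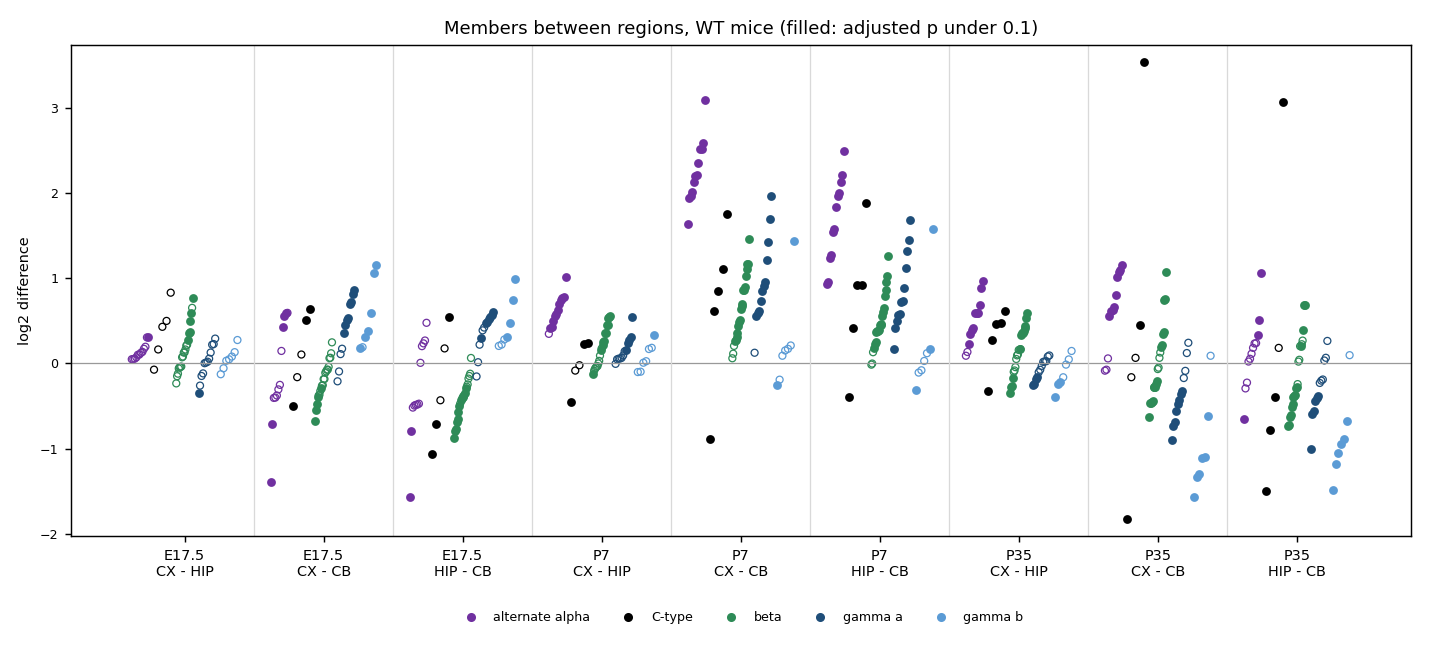
Log2 difference between 2 regions (vertical axis, the first named region minus the second) of each tested member in WT mice at each period, with 1 point per gene colored by type and filled where called at an adjusted p under 0.1. The alternate alpha genes are all above 0 in P7 CX and HIP against CB, and in adults the 2 extreme points against CB are Pcdhgc5 (3.54 in CX, 3.06 in HIP) and Pcdhgc3 (-1.83 and -1.50).

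The differences between the forebrain and CB at P7 were also found in mutants, where 47 of 48 members called for CX and 45 of 50 called for HIP were called with the same sign. In adults these were 38 of 43 and 30 of 35, and in embryos 15 of 27 and 18 of 29. No member was called with the opposite sign in any of the 9 comparisons. As for age, no share of all genes called alike is given beside these counts, so nothing particular to the members can be read from them. At P7 the neuron markers given above had the order of the alpha sums, highest in CX and lowest in CB, and in adults the markers had the same order while the alpha sums of HIP and CB overlapped. In WT embryos the neuron markers were also highest in CX, but the alpha sums of all regions overlapped. Their means were 158, 141 and 169 CPM in CX, HIP and CB, and 180, 168 and 161 CPM without the S3 embryos. The part of cell makeup in the differences between regions was not tested.

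The question of the study, whether loss of 1 copy of Cul3 alters brain expression, was asked of the 58 genes in each period and region. The edgeR quasi-likelihood test called no member in any of the 9 comparisons. DESeq2 and edgeR's likelihood ratio test called none either, and neither did the fits of embryos without those named S3. With 5 RUVs factors of unwanted variation as covariates in the likelihood ratio test, 1 or 2 members were called in 5 datasets, in fits that called 190, 62, 259, 85 and 475 genes in all (1.11%, 0.352%, 1.48%, 0.484% and 2.77% of those tested) in embryonic HIP and CB, P7 CB, and adult CX and HIP. These were Pcdhb11 in embryonic HIP and CB (0.55 and 0.31), Pcdhb14 and Pcdhb9 in P7 CB (0.26 and 0.23), Pcdhga12 and Pcdhga3 in adult CX (0.41 and 0.21), and Pcdhgb5 and Pcdhb8 in adult HIP (0.38 and -0.39), as log2 fold changes. With 3 such factors Pcdhb11 in embryonic HIP (0.55) and Pcdhgb5 in adult HIP (0.38) were called, in fits that called 59 and 195 genes in all. The authors of the study fitted RUVs factors and sex in edgeR models. They reported many differentially expressed genes besides Cul3 in each period at an FDR of 0.1. Without these covariates, the quasi-likelihood test used here called Cul3 alone over all genes. This is 0.00603%, 0.00586% and 0.00568% of the genes tested in CX, HIP and CB at E17.5. It is 0.00566%, 0.00563% and 0.0057% at P7, and 0.00569%, 0.00584% and 0.00584% in adults. At an unadjusted p under 0.05 there were 1, 0 and 5 members in embryonic CX, HIP and CB, where 1.67%, 2.29% and 3.5% of all genes reached it, 4, 3 and 8 members at P7 (3.22%, 5.05% and 4.89%), and 4, 2 and 7 members in adults (3.66%, 6.25% and 14.4%).

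The cluster sums of the mutants were 84.0% to 109% of WT for alpha, 97.0% to 105% for beta and 82.2% to 101.6% for gamma over the 9 combinations. The ranges of the genotypes overlapped in each case, and each difference was smaller than the larger of the 2 SDs. In the embryonic forebrain the SDs of the alpha sums also hold the offset of the S3 embryos, which both genotypes shared. Same-numbered embryos of the 2 genotypes shared the start of their names, S2, S3 or S4, and had the same numbers in the 3 regions. The alpha sum of embryonic CX was lower in the mutant in 6 of 6 such pairs, by 4.02 to 33.8 CPM, and the beta and gamma sums in 5 and 4 of 6. The mean alpha difference there was -18.0 CPM, with an SD of the differences of 11.7 CPM. In embryonic HIP the alpha sum was lower in 6 of 6 pairs (-22.5 CPM, SD 11.8) and in CB in 3 of 6 (14.5 CPM, SD 32.3). These counts and differences have no test. The lowest gamma value was that of embryonic HIP, with 568 ± 159 CPM in WT and 466 ± 122 CPM in Cul3+/- mice (SD, n = 6). WT replicate 2 of that group, an S2 mouse, had the lowest WT gamma sum, 346 CPM against 440 to 762 CPM. Its choroid plexus markers (Ttr, Kl, Folr1, Otx2 and Kcne2) summed to 4612 CPM against 11.5 to 134 CPM in the other WT libraries. WT replicates 1 and 4 held 15126114 and 15264678 counts, against a median of 32663960 over all libraries. The part of these markers and of depth in the gamma sums was not tested. In embryonic HIP all 14 alpha and all 22 gamma genes had negative log2 fold changes, with medians of -0.27 and -0.24 against 0.00 over all genes. In embryonic CX 13 of 14 alpha and 21 of 22 gamma genes were negative as well (medians -0.14 and -0.20), and in P7 CX all 22 gamma genes (-0.11), whereas in embryonic CB 13 of 14 alpha genes were positive (0.16). Members of a cluster varied together between libraries, as given further on, so these signs are not independent and their counts have no test. When the S3 embryos were left out, 14 alpha and 20 gamma genes were negative in embryonic HIP (medians -0.25 and -0.10), 10 and 17 in CX (-0.08 and -0.08), and 11 alpha genes were positive in CB (0.10). Beta genes had medians between -0.06 and 0.09 in all 9 combinations. Within mice named S2, S3 and S4, with 2 of each genotype in each, the ratio of the mutant to the WT sum in embryonic HIP was 0.831, 0.835 and 0.851 for alpha and 1.04, 0.601 and 0.824 for gamma, and in embryonic CX it was 0.914, 0.808 and 0.907 for alpha and 1.07, 0.782 and 0.946 for gamma. In embryonic CB the alpha ratios were 1.11, 1.20 and 0.928.

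In adult CB 20 of 22 gamma genes had negative log2 fold changes, with a median of -0.24, and signs that are not independent here either. The gamma sums were 585, 600.1, 947, 676 and 567 CPM in WT and 542, 596, 596, 579 and 616 CPM in mutants. The highest value was that of WT replicate 3, the library with the raised astrocyte markers, and the other WT libraries overlapped the mutants.

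The member with the smallest p was a different gene in each comparison. In embryonic CX it was Pcdhga1, a gamma a gene, with 16.5 ± 3.31 CPM in WT and 12.01 ± 2.89 CPM in Cul3+/- mice (SD, n = 6, log2 fold change -0.46, SE 0.18, edgeR adjusted p = 0.991). In this dataset alone every same-numbered pair passed the correlation rule for pairing described further on, although the same embryos had the same numbers in HIP and CB. In a fit blocked on that number Pcdhga1 was called, with -0.47 and an edgeR adjusted p of 0.0687, as 1 of 55 genes called in all. In the other embryonic datasets it was Pcdhb6 in HIP (-0.38, adjusted p = 0.941) and Pcdhb11 in CB (0.28, adjusted p = 0.988).

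At P7 these genes were Pcdhga9 in CX (-0.31, edgeR adjusted p = 0.900), Pcdhgb7 in HIP (0.27, adjusted p = 0.833) and Pcdhb14 in CB (0.26, adjusted p = 0.915). In adults they were Pcdhga3 in CX (0.24, edgeR adjusted p = 0.997), Pcdhgb5 in HIP and Pcdhb20 in CB (-0.20, adjusted p = 0.304). Pcdhgb5, with 8.09, 5.42, 7.60, 7.39 and 6.35 CPM in WT and 8.59, 9.40, 9.36, 9.36 and 9.03 CPM in mutants, had all mutant libraries above all WT ones. It was picked as the member of smallest p, and the share of all genes separated in this way is not given here. Its log2 fold change was 0.39 with an SE of 0.10, and the adjusted p by edgeR was 0.796. Of these 9 genes 4 were lower and 5 higher in mutants.

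Members of a cluster varied together between libraries of the same group. The median correlation of their deviations from the group means, over all libraries of the 34 mice, was 0.57 between alpha genes, 0.54 between beta genes and 0.56 between gamma genes, and 0.47, 0.41 and 0.37 between alpha and beta, alpha and gamma, and beta and gamma genes. Pairs of genes spread evenly over the table had a median of 0.00044. These values have no test. The deviations include the offset of the S3 embryos and the other libraries that stood apart. Pairs of alpha or gamma genes also share reads of their constant exons, which beta genes do not.

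Other genes of the pathway were followed from lists. The 18 regulators of the clusters, which bind, loop or silence their promoters (Ctcf, the cohesin genes Rad21, Smc1a, Smc3, Stag1 and Stag2, their loaders and release factor, DNA methyltransferases, Smchd1, Rest and others), fell in the forebrain between E17.5 and P7, 16 lower and 1 higher in CX with a median of -1.01, and 17 lower and 1 higher in HIP with a median of -0.78, where 42% and 39.3% of all genes were lower. In CB 10 fell and 6 rose, against 38.4% and 37.1% of all genes. Ctcf, the insulator protein that binds the alternate promoters, went from 137 to 64.7 CPM in CX and from 111 to 136 CPM in CB. The regulator that rose in CX was Dnmt3a, a de novo DNA methyltransferase, from 135 to 409 CPM, and it was at 137 CPM in adults. Between P7 and adults 10 fell and 3 rose in CX (37% and 35.4% of all genes) and 11 fell and 4 rose in CB (40.2% and 39.7%).

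The 12 nonclustered protocadherins, single genes outside these clusters, shared part of the course of the alpha cluster. In CX 8 rose and 3 fell between E17.5 and P7 (39.5% and 42% of all genes), with a median of 1.05, and in CB 10 fell and 2 rose (38.4% and 37.1%), with a median of -0.95. After P7, 5 rose and 7 fell in CX (35.4% and 37% of all genes) and 3 rose and 9 fell in CB (39.7% and 40.2%), where most clustered genes rose. Pcdh19, for example, was at 73.9, 176 and 68.8 CPM in CX and at 110.3, 17.46 and 9.70 CPM in CB at the 3 periods, and Pcdh10 at 106, 303 and 325 CPM in CX and 211, 69.4 and 49.3 CPM in CB.

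The 17 intracellular partners, among them the kinases Ptk2 and Ptk2b and subunits of the WAVE complex, rose in most cases between E17.5 and P7, 12 higher and 4 lower in CX, 13 and 3 in HIP, and 13 and 0 in CB. Of all genes 39.5%, 37.5% and 37.1% were higher and 42%, 39.3% and 38.4% lower in the 3 regions. Of the 8 genes of proteolytic processing (Adam10 and the gamma-secretase subunits), 2 rose and 4 fell in CX, 2 rose and 5 fell in HIP, and 3 rose and 1 fell in CB over that step, and the 4 of 8 that fell in CX are near the 42% of all genes that did. No gene of these 4 lists was called between genotypes in any of the 9 comparisons by edgeR's quasi-likelihood test.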

How the data were processed

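Expected counts per gene were deposited for all libraries. The authors made stranded libraries from ribosome-depleted total RNA, trimmed paired reads with cutadapt 1.14, aligned them with STAR 2.5.3a to GRCm38.p5 with Gencode v16, and quantified genes with RSEM 1.3, which divides reads that fit several genes by estimation. Symbols and exon overlaps came from GENCODE vM21 of the same build, which matched 53274 of 53465 identifiers.

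Expected counts were rounded. Each comparison was fitted by itself with edgeR 4.0.16 (R 4.3.3, limma 3.58.1), after filterByExpr (minimum count 10, minimum total 15), with TMM normalization, the quasi-likelihood test and Benjamini-Hochberg adjustment over all genes tested, called at an adjusted p under 0.1. Each SE was obtained as the size of the log2 fold change over the root of its F statistic. Genotypes were compared within period and region, ages in WT mice of each region, and regions in WT mice with mouse as a block. Levels given per library use 1 TMM scaling over all libraries, and CPM beside a fold change use that of its own comparison, so they differ slightly. Scripts were tested on simulated counts. The depths above limit precision to what the replicate spread shows, and p-values measure the spread between mice.

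Members and gene lists were chosen with earlier results of these data known. Named were the 5 C-type genes, the 3 genes of highest WT CPM per kb of each alternate type (alpha, beta, gamma a and gamma b), the member of smallest p and any called member per genotype comparison, and the called members of largest positive and negative log2 fold change per age or region comparison. Pcdhb1, Pcdhb8, Pcdhb21, Pcdhb22, Pcdhga12 and the pathway genes given as examples were picked outside this rule, after their values were seen.

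Alternatives were upper-quartile normalization, DESeq2 1.42.0, edgeR's likelihood ratio test, no filter, RUVs with 3 or 5 factors (likelihood ratio test after upper-quartile scaling), other genotypes for the 2 adult mice left out, mutant mice, the replicate block (or none between regions), and leaving out each replicate. The start of the mouse name as a block, leaving out the S3 embryos and the interaction of period and region were chosen after seeing the data. Replicate numbers were taken to pair WT with mutant libraries where every pair's deviations from the group means correlated above 0.1, which held in E17.5 CX (0.113 to 0.759). The same embryos had the same numbers in E17.5 HIP and CB, where the rule was not met (lowest values -0.257 and -0.024).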

Additional observations from a re-analysis of the deposited data

Results flagged for a closer look

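In 9 of 144 groups of 5 or 6 libraries checked, 1 library lay far from the others of its group by Dixon's test, which chance does in about 1 in 20 groups. WT replicate 4 of P7 CX did so for the alpha sum (505 CPM against 353 to 390 CPM), the gamma sum (791 against 607 to 660.4 CPM), Pcdhac1 (11.8 against 6.81 to 8.63 CPM) and Pcdhgc3 (155 against 107 to 123 CPM). WT replicate 3 of adult CB did so for the gamma sum, with 947 against 567 to 676 CPM. Each of these libraries also had the most hippocampal neuron markers of its group, with 198 against 98.7 to 128 CPM in P7 CX and 346 against 125 to 258 CPM in adult CB, and the part of these markers in the sums was not tested. Cul3+/- replicate 3 of P7 HIP was high for Pcdhac1 (11.9 against 7.13 to 8.64 CPM), with 3517 CPM of astrocyte markers against 2254 to 3254 CPM and 1335 CPM of hippocampal neuron markers against 651 to 1022 CPM. It had the highest level of its group for 8 of 14 alpha, 10 of 22 beta and 18 of 22 gamma genes, and the part of the markers in this was not tested. In embryonic CB, WT replicate 6 was high for Pcdhgc3 (132 against 102.2 to 112 CPM) and WT replicate 1 for Pcdhgc5 (6.98 against 4.60 to 5.01 CPM). In adult CB, Cul3+/- replicate 1 was low for Pcdhgc4 (39.7 against 56.0 to 61.1 CPM).

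The change with age differed between CX and CB by the tested interaction for 49 members between E17.5 and P7 and for 53 between P7 and adults. Among the C-type genes the change in CX minus that in CB was 1.59 for Pcdhac2, -1.41 for Pcdhgc3, 0.76 for Pcdhgc4 and 1.63 for Pcdhgc5 over the first step, and -0.98 for Pcdhac1, -1.01 for Pcdhac2, -0.91 for Pcdhgc3 and 1.82 for Pcdhgc5 over the second. Both steps share the P7 libraries.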

How the results depend on the processing

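Of the counts and sums, 261 alternative values were within 1.5 times the main count or the spread of replicates and 10 moved, and all 551 values with 1 replicate left out stayed within these bounds. With the replicate block, whose numbers met the rule for pairing in E17.5 CX alone, 1 member was called by genotype there, and the block moved no other count of calls by genotype or age by over 1.5 times. RUVs with 3 factors called 1 member by genotype in E17.5 HIP and 1 in adult HIP, and with 5 factors 1 in E17.5 HIP, 1 in E17.5 CB, 2 in P7 CB, 2 in adult CX and 2 in adult HIP, in fits that called 59 to 475 genes in all. Between embryonic CX and HIP, 8 members differed in WT mice, 7 higher in CX (19% of all genes) and 1 lower (25.4%). With no replicate block 4 differed, in a fit that called 6185 genes in all. In mutant mice 27 differed, where 62.6% of all genes were called. The number of members called by genotype was 0 with any 1 replicate left out. The causes were not tested.

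The signs that turned belonged to small log2 differences of C-type genes. In mutant mice Pcdhac1 was 0.094 between P7 and adult CX, -0.066 between embryonic HIP and CB and 0.24 between adult CX and CB, Pcdhgc3 was 0.44 between E17.5 and P7 in HIP and 0.20 between embryonic CX and HIP, and Pcdhgc4 was 0.16 and Pcdhgc5 -0.10 between embryonic CX and CB. With the replicate block Pcdhgc3 was 0.040 between E17.5 and P7 in HIP, and without the S3 embryos Pcdhac2 was -0.0026 between embryonic CX and HIP. With 1 replicate left out, the ranges that crossed 0 were -0.069 to 0.091 for Pcdhac1 between P7 and adult CX, -0.12 to 0.090 for Pcdhgc3 between E17.5 and P7 in HIP, -0.18 to 0.085 for Pcdhgc3 between embryonic CX and HIP, -0.32 to 0.037 for Pcdhgc4 between embryonic CX and CB, -0.042 to 0.37 for Pcdhac1 between embryonic HIP and CB, -0.15 to 0.047 for Pcdhac1 between P7 CX and HIP, and -0.00023 to 0.18 for Pcdhac2 between adult CX and CB. Of the values of single genes, 771 kept direction and side of the threshold under the other alternatives, 17 passed it, 14 lost it and 9 turned. Counts of low members such as Pcdhb1 are limited by depth, and the division of reads among alpha or gamma genes was not varied.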
